A study of Mus musculus with 16 samples.

Results

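The genes described here are 10 genes of kidney tubule injury and repair: *Havcr1*, *Spp1*, *Krt20*, *Krt8*, *Krt18*, *Clu*, *Vcam1*, *Sox9*, *Cd24a* and *Anxa2*. They were taken by name, and they make up 10 of the 24984 genes in the count tables. RNA-seq was measured in 16 libraries from aged mice, with kidney as the main tissue and liver for contrast. Each tissue gave 4 libraries from mice that received an AAV8 vector with a hairpin against *Fos* (sh*Fos*) and 4 from mice that received a non-targeting hairpin (NT). The comparison asks what these genes do in an old kidney once *Fos* is knocked down.

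All mice were wild-type female C57BL/6 mice that were 24 months of age when the vector was given into the tail vein, and the organs were taken 3 months later. Every library therefore comes from an old, vector-injected animal. No young, uninjected or experimentally injured kidney was analysed here, so that the values are those of aged kidneys and not of an injury model. RNA was taken from whole tissue, a single hairpin stands for the knockdown, and the promoter of the hairpin is not given in the sources used here. The labels do not say that the 4 libraries of a group are 4 animals. The paper states that mice were randomized to a vector and gives n = 4 for this RNA-seq. The p-values measure the spread between these samples, whose source the labels do not give. That spread was wider than counting error. The chi-square per degree of freedom (variance of the counts relative to counting error) was at least 7.17 between kidney libraries of a group. In liver it was at least 19.9.

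A damaged tubule cell loses its transport genes, spreads its keratin skeleton and takes on a repair program. *Havcr1* (kidney injury molecule-1), clusterin and osteopontin are the classic markers of that state, *Sox9* is the transcription factor of the repairing epithelium, and *Vcam1* is known from tubule cells that stay in an injured state. In liver, keratins 8 and 18 are the keratin pair of the hepatocyte and clusterin is a secreted hepatocyte protein, whereas *Sox9*, *Spp1* and *Cd24a* are known from bile duct cells. *Fos* is a subunit of AP-1, a dimeric transcription factor that binds the letters TGANTCA.

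Counted reads ranged from 14194543 to 15534665 per kidney library and from 16652150 to 18300277 per liver library. Levels are given as CPM, the share of a library's counted reads in parts per 1000000, after TMM scaling (trimmed mean of M values) within a tissue. Summed markers of the labelled organ were high in every library: 15 proximal tubule genes summed to between 10136 and 47016 CPM in kidney, and 7 hepatocyte genes to between 67945 and 195311 CPM in liver. Kidney *Fos* was at 6.71, 5.26, 4.23 and 5.29 CPM in NT replicates 1 to 4 and at 2.57, 4.12, 3.93 and 2.30 CPM in sh*Fos* replicates 1 to 4. The groups did not overlap. The adjusted p was 0.0955 by the quasi-likelihood test of edgeR, with Benjamini-Hochberg adjustment over all genes tested, and 0.0464 in DESeq2. In liver the *Fos* values overlapped, with 1.12 to 3.70 CPM in NT and 1.38 to 2.76 CPM in sh*Fos*. The adjusted p there was 0.778 in edgeR and 0.8375 in DESeq2. By RT-qPCR the paper reports lower *Fos* in both organs of sh*Fos* mice. Kidney NT replicate 4 stood apart in its marker genes, with 14.3 CPM of summed B lymphocyte and plasma cell genes against 110.6 to 298.5 CPM in the other kidney libraries, and with 217.5 CPM of *Lcn2* against at most 72.8 CPM. In liver, NT replicate 4 stood apart with 6151 CPM of *Lcn2* against at most 742 CPM elsewhere.

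In the aged kidney none of the 10 genes passed the test of sh*Fos* against NT. *Sox9* came nearest, with a mean of 0.540 times its NT level. The other genes lay between 0.658 times (*Krt20*) and 1.495 times (*Vcam1*) their NT means, with groups that overlapped. At an adjusted p under 0.05 edgeR called 0 of the 10 genes, against a background of 0% of the 14892 kidney genes tested. At an unadjusted p under 0.05 edgeR found 1 of the 10 (*Sox9*), against a background of 31.9%, and DESeq2 called 1 of the 10 after adjustment (*Sox9*), against a background of 16.9%, 7.16% being lower in sh*Fos*. Without NT replicate 4 and sh*Fos* replicate 1, which had the highest urothelial marker sums, edgeR called 3 of the 10 (*Krt18* and *Sox9* lower, *Vcam1* higher), against a background of 34.9%. The count of genes below the threshold was thus no higher in this list than in the kidney as a whole. Of the 10 genes, 4 had a higher and 6 a lower estimate in sh*Fos*, with a median log2 fold change of -0.14 beside 0.00 over all genes tested. All these values come from whole tissue, where fewer cells of a type and less RNA per cell cannot be told apart.

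**Figure D1:**
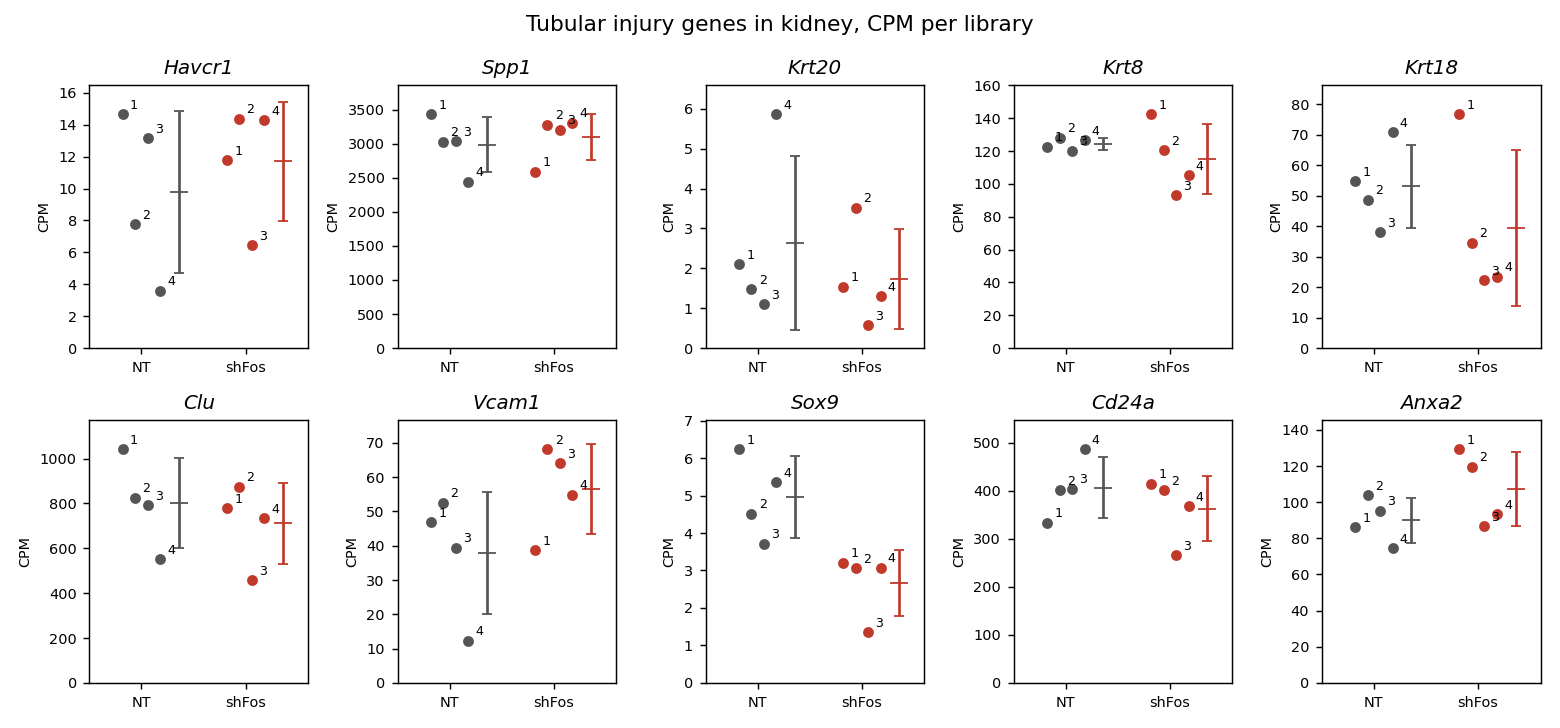
Level of each of the 10 genes in kidney, in CPM on a linear axis from 0, for the 4 NT libraries (grey) and the 4 sh*Fos* libraries (red), with replicate numbers beside the points and the group mean with its SD to the right. *Sox9* is the gene whose groups do not overlap, and NT replicate 4 is the lowest library of *Havcr1* and *Vcam1* and the highest of *Krt20*.

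*Sox9* encodes a transcription factor that tubule cells switch on as they repair. The gene lies at chr11:112782224-112787760 on the plus strand (mm10). Its kidney level was 6.25, 4.52, 3.71 and 5.35 CPM in NT replicates 1 to 4, and 3.21, 3.06, 1.36 and 3.07 CPM in sh*Fos* replicates 1 to 4. All 4 sh*Fos* libraries were below all 4 NT libraries, and sh*Fos* replicate 3 was the lowest of the 8. The group means were 4.96 ± 1.09 and 2.68 ± 0.881 CPM (SD, n = 4 each), and the exact two-sided permutation test gave p = 0.0286, the smallest value that 70 assignments allow. In the edgeR fit the log2 fold change was -0.89 with a standard error of 0.30 and an adjusted p of 0.0901, and in DESeq2 it was -0.89 with an adjusted p of 0.0370. Of all kidney genes tested, 17.2% had groups that did not overlap, and 8.04% did so with sh*Fos* lower. The gene was counted in 19 to 95 reads per kidney library. Leaving out each library in turn gave log2 fold changes from -1.02 to -0.67.

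*Havcr1*, *Vcam1* and *Cd24a* encode surface proteins. *Havcr1* (chr11:46735080-46779578, plus strand) encodes the phosphatidylserine receptor with which injured tubule cells take up debris. Its kidney level was 14.7, 7.75, 13.2 and 3.61 CPM in the NT libraries and 11.8, 14.4, 6.44 and 14.3 CPM in the sh*Fos* libraries, from 56 to 223 reads. The groups overlapped over most of their range, and the lowest library was NT replicate 4. Its log2 fold change was 0.26 with a standard error of 0.42 and an adjusted p of 0.698, and it turned to -0.02 without NT replicate 4.

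*Vcam1* (chr3:116109949-116129688, minus strand) encodes the adhesion molecule that holds leukocytes through the integrin of *Itga4* and *Itgb1*, and endothelium also makes it. It was at 46.9, 52.6, 39.4 and 12.3 CPM in the NT libraries and at 38.8, 68.3, 64.1 and 54.9 CPM in the sh*Fos* libraries. NT replicate 4 again lay far below the other 7 libraries, and without it the NT values of 39.4 to 52.6 CPM lay within the range of sh*Fos*. For *Vcam1* the log2 fold change was 0.58 with a standard error of 0.38 and an adjusted p of 0.323, and 0.29 without that library. An antisense transcript lies across the locus, and counting without regard to strand cannot tell the 2 apart.

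*Cd24a* (chr10:43578284-43584265, plus strand) encodes a small lipid-anchored glycoprotein of epithelial and progenitor cells. It was at 334, 401, 404 and 487 CPM in NT and at 415, 402, 266 and 368 CPM in sh*Fos*. The highest library was NT replicate 4 and the lowest sh*Fos* replicate 3, with the other 6 between 334 and 415 CPM. In the fit *Cd24a* had a log2 fold change of -0.17 with a standard error of 0.16 and an adjusted p of 0.516.

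*Spp1* and *Clu* encode secreted proteins and were the most abundant of the 10 genes. *Spp1* (chr5:104435118-104441050, plus strand) encodes osteopontin, a ligand of integrins that tubules of a healthy kidney make as well. It was at 3432, 3026, 3032 and 2444 CPM in NT and at 2587, 3279, 3202 and 3305 CPM in sh*Fos*. The group means of 2984 ± 407 and 3093 ± 341 CPM (SD, n = 4 each) differed by less than the spread within a group, with a log2 fold change of 0.05, a standard error of 0.15 and an adjusted p of 0.832. Another transcript on the same strand overlaps exons of *Spp1* and was not counted apart.

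*Clu* (chr14:65968483-65981547, plus strand) encodes clusterin, an extracellular chaperone that tubule cells release when injured. It was at 1043, 826, 791 and 552 CPM in NT and at 778, 874, 457 and 734 CPM in sh*Fos*. Both groups held a low library, NT replicate 4 and sh*Fos* replicate 3, and the groups overlapped. *Clu* had a log2 fold change of -0.18 with a standard error of 0.23 and an adjusted p of 0.632.

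The keratins build the intermediate filaments of simple epithelia, type II *Krt8* pairing with type I *Krt18* or *Krt20*. *Krt8* (chr15:101996698-102004482, minus strand) was at 123, 128, 120 and 127 CPM in NT and at 143, 121, 93.0 and 105 CPM in sh*Fos*. The NT libraries lay within 8 CPM of each other, inside the wider range of sh*Fos*. Its log2 fold change was -0.11 with a standard error of 0.12 and an adjusted p of 0.576, and it turned to 0.10 under a correction for GC content. A non-coding RNA on the other strand overlaps exons of *Krt8*, and counting without regard to strand cannot tell them apart.

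*Krt18* (chr15:102028180-102032027, plus strand) was at 54.6, 48.6, 37.9 and 70.8 CPM in NT and at 76.7, 34.6, 22.2 and 23.4 CPM in sh*Fos*. Of the sh*Fos* libraries, 3 lay below every NT library and replicate 1 above every one. The log2 fold change was -0.43 with a standard error of 0.39 and an adjusted p of 0.473. Without sh*Fos* replicate 1 it was -1.02 with an adjusted p of 0.0215 in edgeR, in a fit that called 27.5% of all genes tested, and 15% as lower in sh*Fos*.

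*Krt20* (chr11:99428403-99438150, minus strand) is a keratin of the urothelium that injured tubules also express. It was at 2.10, 1.48, 1.11 and 5.87 CPM in NT and at 1.54, 3.53, 0.572 and 1.31 CPM in sh*Fos*. The 2 highest libraries were NT replicate 4 and sh*Fos* replicate 2. The log2 fold change was -0.60 with a standard error of 0.64 and an adjusted p of 0.548, and it was 0.16 without NT replicate 4 and -1.20 without sh*Fos* replicate 2.

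*Anxa2* (chr9:69453620-69491795, plus strand) encodes a calcium-dependent membrane-binding protein that pairs with S100a10. It was at 86.2, 103.8, 95.4 and 74.6 CPM in NT and at 129.5, 119.6, 86.8 and 93.2 CPM in sh*Fos*. The 2 highest libraries were both sh*Fos* and the lowest was NT, but the groups overlapped. With these values the log2 fold change was 0.25 with a standard error of 0.15 and an adjusted p of 0.278. An antisense transcript overlaps the gene. *S100a10* itself was at 101.8 to 116.0 CPM in NT and up to 118.7 CPM in sh*Fos* (log2 fold change -0.06), with an adjusted p of 0.649.

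**Figure D2:**
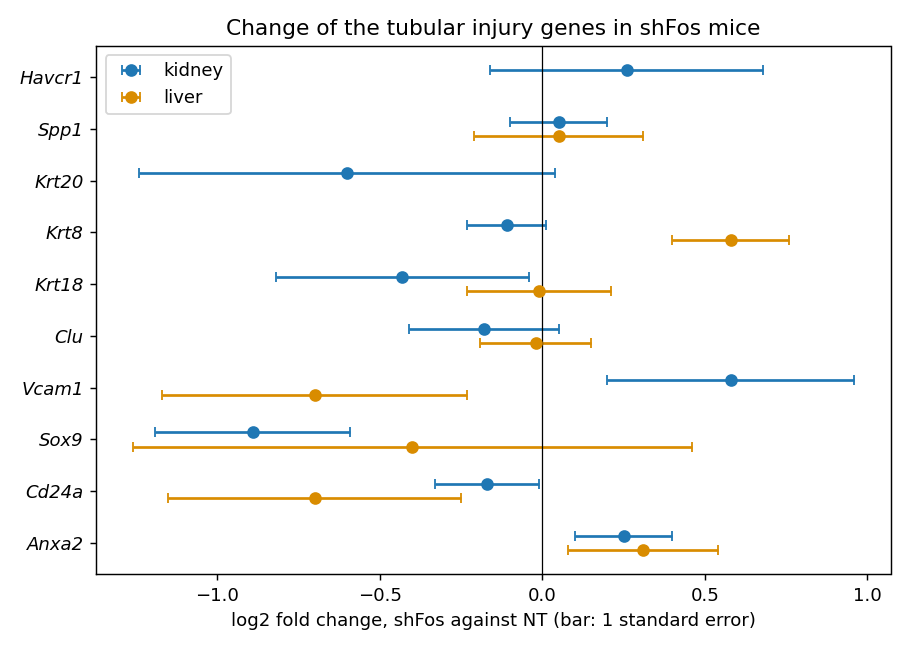
Log2 fold change of each gene in sh*Fos* against NT (horizontal axis), in kidney (blue) and liver (orange), with bars of 1 standard error from the edgeR fit of each tissue. The kidney estimates lie between -0.89 (*Sox9*) and 0.58 (*Vcam1*), and *Havcr1* and *Krt20* have no liver point because too few liver reads were counted.

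Since *Fos* is part of AP-1, the promoters of these genes were searched on both strands for TGANTCA, in windows from 250 bases before to 50 bases after the annotated start (RefSeq, GRCm38.p6). The table of promoters held 9 windows for 6 of the 10 genes (*Havcr1*, *Spp1*, *Krt20*, *Krt8*, *Krt18* and *Anxa2*). The motif was in 2 of the 9 windows, against 7.81% of all 32851 promoter windows of that length. The match in *Havcr1* starts at +11 from the start of 1 of its 3 windows, and that in *Anxa2* at -95. The stretches that hold them are given here because they are the only matches to the AP-1 letters in the windows searched, with the match in capitals.
Havcr1, chr11:46751167-46751196, plus strand, GRCm38.p6: ggtcagtaccaTGAATCAgattcaagtctt
Anxa2, chr9:69453433-69453682, plus strand, GRCm38.p6: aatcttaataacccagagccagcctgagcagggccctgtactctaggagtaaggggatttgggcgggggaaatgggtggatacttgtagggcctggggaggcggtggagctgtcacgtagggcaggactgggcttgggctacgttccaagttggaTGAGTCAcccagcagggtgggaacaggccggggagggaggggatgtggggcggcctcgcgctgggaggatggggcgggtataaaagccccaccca

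Neither of these 2 genes passed the test in kidney, with log2 fold changes of 0.26 and 0.25. The cyclic AMP response element TGACGTCA, a motif of NF-kB and the STAT letters TTCNNNGAA were in 0 of the 9 windows, against 1.79%, 1.63% and 8.30% of all promoter windows. A match describes letters in a window, and no binding was measured here.

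The 10 genes differed in how closely the libraries of a group agreed. On the log2 CPM scale the SD within groups was 0.98 for *Krt20*, 0.74 for *Havcr1*, 0.73 for *Vcam1*, 0.64 for *Krt18*, 0.45 for *Sox9* and 0.40 for *Clu*. For *Cd24a*, *Anxa2*, *Spp1* and *Krt8* it was 0.26, 0.24, 0.19 and 0.19, beside a median of 0.22 over all genes tested. The genes thus fell into a variable set, led by *Krt20*, *Havcr1* and *Vcam1*, and a set near that median, which holds *Spp1*, the most abundant of the 10. *Krt20* was counted in 8 to 91 reads per kidney library. In the deviations from the group means over the 8 kidney libraries, *Krt8* and *Krt18* moved together (Pearson r = 0.89), as did *Havcr1* with *Clu* (0.88) and *Spp1* with *Vcam1* (0.85), whereas *Spp1* and *Krt18* moved in opposite directions (-0.71). These are descriptions over 8 libraries that share their scaling.

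The wide spread of *Krt18* ran beside the genes of the urothelium, the lining of the renal pelvis, which a piece of whole kidney can hold in varying amount. The 7 urothelial genes summed to 40.0, 40.2, 20.7 and 90.4 CPM in the NT libraries and to 126.3, 59.3, 7.15 and 8.91 CPM in the sh*Fos* libraries. The libraries with the highest sum, sh*Fos* replicate 1 and NT replicate 4, were also the 2 highest for *Krt18*, and the 2 with the lowest sum, sh*Fos* replicates 3 and 4, were its 2 lowest. *Krt19*, a keratin of ducts and urothelium, had the same 2 highest libraries, at 30.2 CPM in NT replicate 4 and 24.9 CPM in sh*Fos* replicate 1, and the same 2 lowest, at 2.22 and 4.61 CPM. Uroplakin genes defined the list, and *Upk2* and *Upk3a* were at 0 in sh*Fos* replicate 3. Of the 7 urothelial genes, 3 had a higher and 4 a lower estimate in sh*Fos*, and edgeR found 0 of them at an unadjusted p under 0.05. The median of the list was -0.03, and it was 0.69 without NT replicate 4 and -0.71 without sh*Fos* replicate 1. The match was not particular to the urothelium. The collecting duct genes had the same 2 highest libraries, at 1289 CPM in NT replicate 4 and 1206 CPM in sh*Fos* replicate 1. Their 2 lowest were also sh*Fos* replicates 3 and 4, at 767 and 758 CPM. *Krt20* was highest in NT replicate 4 too, but was at 1.54 CPM in sh*Fos* replicate 1. The part of the urothelium or of the collecting duct in the keratin values was not tested.

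**Figure D3:**
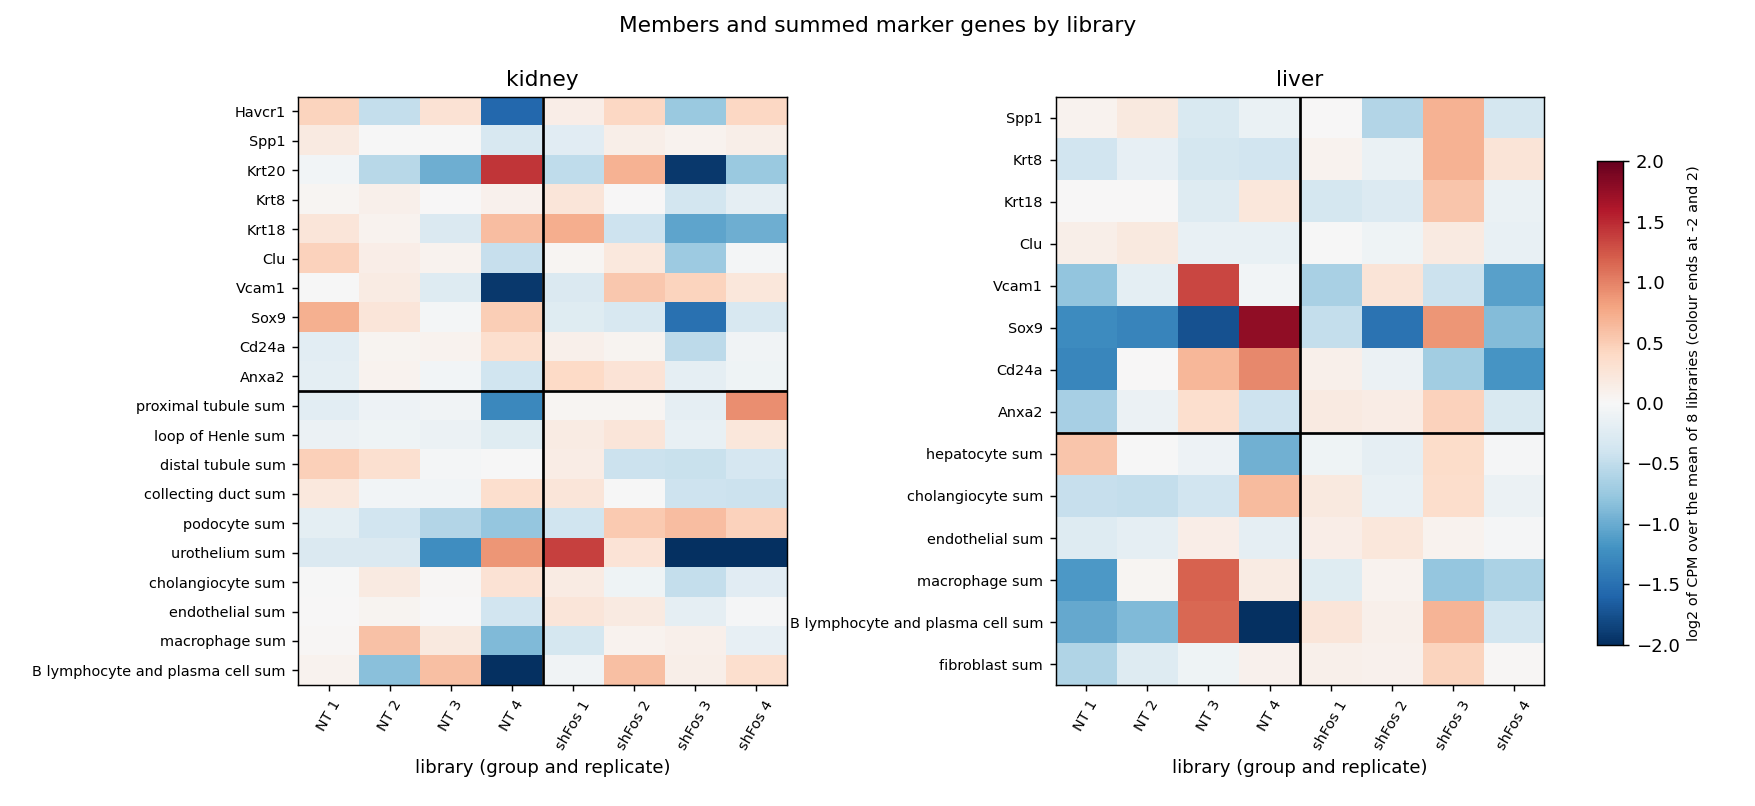
Each gene, and the summed CPM of each marker list, in each library as the log2 of its level over the mean of the 8 libraries of the tissue, from -2 (blue) to 2 (red), with kidney on the left and liver on the right and NT before sh*Fos*. The rows of *Krt18*, of the urothelial sum and of the collecting duct sum share their high and low libraries in kidney. The high ones are NT 4 and shFos 1, and the low ones shFos 3 and 4. Liver NT 4 is high for *Sox9* and for the cholangiocyte sum, which includes *Sox9*.

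Markers of the parts of the nephron did not all lie on the same side in sh*Fos*. All 15 proximal tubule genes had a higher estimate (median log2 fold change 0.65), 5 of them at an unadjusted p under 0.05 against a background of 17.1% higher, and DESeq2 called 4. All 5 podocyte genes did so as well (median 0.82), all 5 at an unadjusted p under 0.05 and all 5 called by DESeq2. In contrast, all 4 distal tubule genes and 10 of 11 collecting duct genes had a lower estimate (medians -0.42 and -0.30), with 2 and 1 at an unadjusted p under 0.05. After adjustment edgeR called 0 genes of each list. Over all kidney genes tested, DESeq2 called 16.9%, and 14.8% were lower at an unadjusted p under 0.05 in edgeR. Of *Slc3a1*, the proximal cystine transporter, the levels were 266 to 424 CPM in NT and 454 to 801 CPM in sh*Fos*, and *Scnn1b*, a subunit of the sodium channel of the collecting duct, was at 72.0 to 96.9 CPM in NT and 54.8 to 72.9 CPM in sh*Fos*. The part of the makeup of the tissue in the value of *Sox9* was not tested. The sum of the proximal tubule genes was lowest in NT replicate 4, at 10136 CPM against 21547 to 23752 CPM in the other NT libraries, the library with the lowest *Havcr1*.

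Among leukocytes, macrophage genes summed to 381 CPM in NT replicate 4 and to between 545 and 1052 CPM in the other kidney libraries, and T lymphocyte genes to 6.12 CPM and between 25.7 and 62.3 CPM. *Vcam1* was lowest in the same library. Endothelial genes, whose cells also make *Vcam1*, summed to 685 to 934 CPM in NT and 794 to 1058 CPM in sh*Fos*, and 4 of the 8 were higher at an unadjusted p under 0.05 (17.1% of all kidney genes tested were higher at that p and 14.8% lower), among them the VEGF receptor *Kdr* (38.6 to 63.0 CPM in NT, 72.8 to 89.8 CPM in sh*Fos*). Fibroblast and erythroid lists had medians of 0.08 (-0.17 without NT replicate 4) and -0.27 (-0.01 without NT replicate 2), with 0 of 7 and 1 of 2 genes tested at an unadjusted p under 0.05, the 1 being lower in sh*Fos*. Hepatocyte genes had 2 of 7 lower at that p and a median of -0.39 (-0.12 without NT replicate 1). Of the 6 loop of Henle genes 2 were higher at that p, and the median was 0.30. The cholangiocyte list, which shares *Sox9*, had 1 gene higher and 2 lower at that p and a median of -0.37, which was 0.04 without NT replicate 4. The B lymphocyte and plasma cell, macrophage and T lymphocyte lists had 1 of 7, 1 of 8 and 0 of 7 genes tested lower at that p, with medians of -1.36, -0.27 and -0.13. Without NT replicate 3 the B lymphocyte median was -0.38, and the summed level of that list, was 188 to 298 CPM in sh*Fos* and 14.3 to 299 CPM in NT. Without NT replicate 2 the T lymphocyte median was 0.19 and the macrophage median -0.05. Other left-out libraries moved the medians the other way. Without NT replicate 4 the B lymphocyte, macrophage and T lymphocyte medians were -1.72, -0.48 and -0.48.

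A further list of 30 genes known from injured or repairing tubules was read beside the 10. After adjustment edgeR called 0 of the 30, and DESeq2 called 3, against a background of 16.9% for DESeq2. At an unadjusted p under 0.05 edgeR found 3 higher and 6 lower, against backgrounds of 17.1% and 14.8%. The median log2 fold change was -0.10. The smallest p belonged to *Cxcl1*, a neutrophil chemokine, which was at 2.15 to 4.18 CPM in NT and at 1.14 to 1.48 CPM in sh*Fos*, with a log2 fold change of -1.25 and adjusted p-values of 0.0661 in edgeR and 0.00648 in DESeq2. *Dcdc2a*, a ciliary gene, was at 38.0 to 46.1 CPM in NT and at 46.9 to 54.4 CPM in sh*Fos* (log2 fold change 0.27, adjusted p of DESeq2 0.0477). *Prom1*, a membrane protein of tubular progenitors, was at 127 to 215 CPM in NT and at 196 to 295 CPM in sh*Fos* (log2 fold change 0.55, adjusted p of DESeq2 0.0371). *Lcn2*, the acute-phase lipocalin used as a urinary marker, was at 47.9, 69.4, 54.9 and 217.5 CPM in NT and at 72.8, 36.1, 15.95 and 23.5 CPM in sh*Fos*, so that its highest value was that of NT replicate 4. The injury genes of this list thus lay on both sides of NT, 13 with a higher and 17 with a lower estimate.

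Partners of the 10 proteins were read in the same way. Of 11 such genes, 4 were higher and 1 lower at an unadjusted p under 0.05 in edgeR, against backgrounds of 17.1% and 14.8%, with 0 called after adjustment and 4 called by DESeq2, against a background of 16.9%. *Itgb1*, the integrin chain through which osteopontin and Vcam1 are bound, was at 297 to 348 CPM in NT and at 385 to 474 CPM in sh*Fos* (log2 fold change 0.46, adjusted p of edgeR 0.0661, adjusted p of DESeq2 0.000588). *Itgav*, which also binds osteopontin, was at 121 to 145 CPM in NT and at 147 to 217 CPM in sh*Fos*. *Lrp2*, the megalin receptor that takes up clusterin and is itself a proximal tubule gene, was at 1148 to 2548 CPM in NT and at 2702 to 3914 CPM in sh*Fos*. For these 3 genes the groups did not overlap, but they were named for their small p, which favours groups without overlap. Of all 11 partners, 3 had no overlap with sh*Fos* higher and 1 with sh*Fos* lower. The shares over all genes tested were 9.16% and 8.04%. For the ligands *Spp1*, *Vcam1* and *Clu* the groups overlapped.

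*Havcr1* belongs to the TIM family, whose other members are known from leukocytes. *Timd4* was at 0.674 to 1.78 CPM in NT and at 0.0768 to 0.599 CPM in sh*Fos*, a log2 fold change of -1.57 with an adjusted p of 0.0888 at a very low level. *Timd2* was at 5.46 to 9.48 CPM in NT and 6.94 to 19.1 CPM in sh*Fos*, and *Havcr2* at 1.16 to 5.12 CPM and 2.86 to 6.80 CPM, with adjusted p-values of 0.228 and 0.408. Of the 4 genes, *Timd4* was thus the 1 at an unadjusted p under 0.05 in edgeR, with 0 called by edgeR after adjustment. Over all kidney genes tested, 31.9% had an unadjusted p under 0.05 in edgeR, 14.8% being lower in sh*Fos*.

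The genes whose deviations from the group means were most like those of each gene over the 8 kidney libraries were read from 11298 genes with a mean of at least 100 reads. With so many candidates and 8 libraries, values of r near 1 are easily reached. For *Sox9* they were *Tgfa* and *Etv6* (Pearson r = 0.97 and 0.96), for *Krt18* *Ptgs1* and *Cldn4* (both 0.99), and for *Vcam1* *Sparc* and *Stk10* (0.99 for the latter). For *Havcr1* they were *Cnnm4* and *Mfhas1*, for *Spp1* *Atg5* and *Sod2*, for *Krt20* *Gys1* and *Ufsp1*, and for *Krt8* *Capn1* and *Fam174b*. For *Clu* they were *Pmepa1* and *Tsc2*, for *Cd24a* *Cyhr1* and *Sim2*, and for *Anxa2* *Stab1* and *Dcakd*. These 14 values lay between 0.96 and 0.99.

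Levels of different genes were compared per kilobase of merged exons. In NT kidneys the order was *Spp1* (1810 CPM per kb), *Clu* (234), *Cd24a* (158), *Krt8* (63.5), *Krt18* (36.9), *Anxa2* (24.1), *Vcam1* (4.26), *Havcr1* (4.24), *Krt20* (1.37) and *Sox9* (1.20). The ranges of the 4 libraries overlapped between the neighbours *Clu* and *Cd24a*, *Krt18* and *Anxa2*, *Vcam1* and *Havcr1*, *Havcr1* and *Krt20*, and *Krt20* and *Sox9*. The markers that healthy tubules lack, *Havcr1* and *Krt20*, were thus among the 4 lowest of the 10 genes in these aged kidneys. In sh*Fos* kidneys *Anxa2* (28.8) and *Krt18* (27.3) were in the opposite order with overlapping ranges, and the other 8 genes held their places.

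In NT livers the order began with *Clu* (482 CPM per kb), *Krt18* (187), *Krt8* (93.1) and *Spp1* (33.9), with no overlap between these neighbours. *Cd24a* (5.07), *Vcam1* (4.87), *Anxa2* (3.59) and *Sox9* (1.87) followed with overlapping ranges, and *Krt20* (0.0702) and *Havcr1* (0.0428) came last. Liver *Havcr1* was counted in 0 to 3 reads per library and *Krt20* in 0 to 8 reads. A count of 0 allows up to 3 reads, which is 0.164 to 0.211 CPM over the 16 libraries, so that *Havcr1* was at or under that limit in every liver library.

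**Figure D4:**
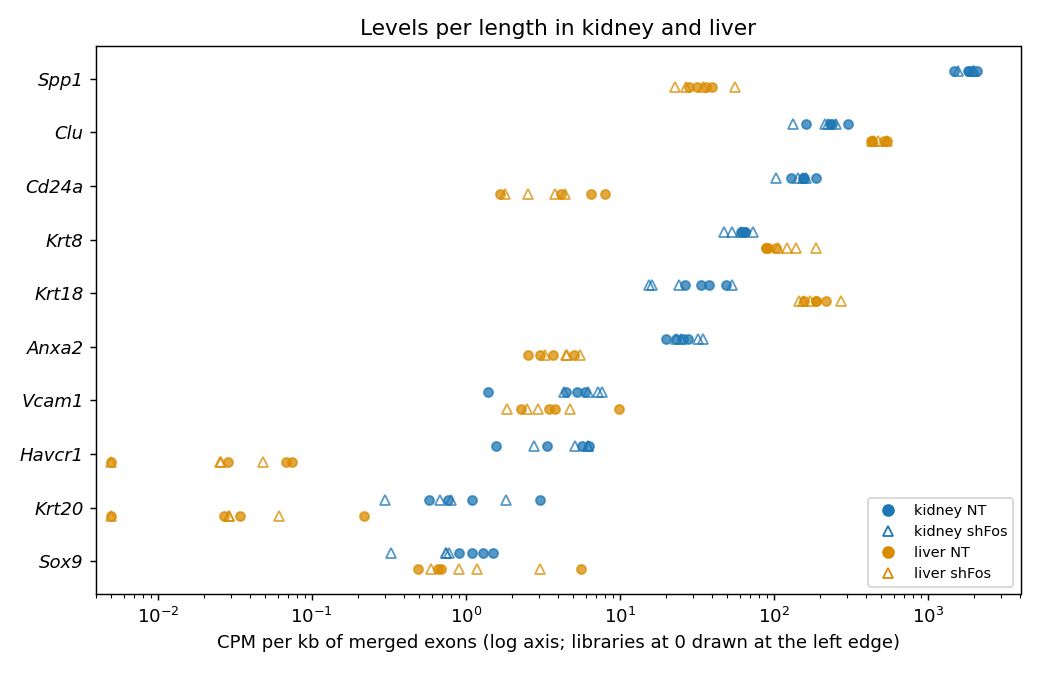
Level per length of each gene in every library (horizontal log axis, CPM per kb of merged exons, scaled within each tissue), for kidney (blue) and liver (orange), with NT as filled circles and sh*Fos* as open triangles. *Havcr1*, *Spp1*, *Cd24a*, *Krt20* and *Anxa2* lie to the right in kidney, *Clu* and *Krt18* to the right in liver, and *Sox9* and *Vcam1* overlap between the tissues.

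The difference between the tissues was tested in NT mice in an edgeR fit of all 16 libraries. *Havcr1* and *Krt20* had too few liver reads to pass the filter there and entered this fit through kidney, where they are high, so that their direction was fixed by the filter and is given as levels only. *Havcr1* was at 3.61 to 14.7 CPM in NT kidneys and 0 to 0.173 CPM in NT livers, and *Krt20* at 1.11 to 5.87 CPM and 0 to 0.423 CPM, each scaled within its tissue. The remaining 8 genes had an adjusted p under 0.05, against a background of 64.7% of 15421 genes, 34.4% higher and 30.2% lower in kidney. The genes higher in kidney were *Spp1* (log2 difference 4.75), *Cd24a* (3.96) and *Anxa2* (1.75), and those lower were *Krt18* (-3.33), *Clu* (-2.04), *Sox9* (-1.64), *Krt8* (-1.54) and *Vcam1* (-1.19). The scaling matters here, since the 10 most counted genes took 20.5% to 26.0% of the liver reads and 8.36% to 10.2% of the kidney reads. In CPM without TMM scaling the median kidney minus liver difference over all genes was 1.08, against 0.05 with it, and these 8 genes kept their signs, at -0.50 for *Krt8*, -0.62 for *Sox9* and -0.20 for *Vcam1*.

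The calls of *Sox9* and *Vcam1* between the tissues did not hold under several alternatives. For *Sox9* the adjusted p of edgeR was 0.0498 as reported and 0.0747 with upper-quartile normalization, 0.0706 without a filter on low counts and 0.0527 at a mean of at least 10 counts. Without liver NT replicate 4 its log2 difference was -0.01 with an adjusted p of 0.982, and without replicate 1 or 2 of all groups the adjusted p was 0.0651 or 0.0722. For *Vcam1* the adjusted p of edgeR was 0.0303 as reported and 0.0600 with upper-quartile normalization and 0.0503 without a filter. Without liver NT replicate 3 the log2 difference of *Vcam1* was -0.58 with an adjusted p of 0.211, and without replicate 4 of all groups the adjusted p was 0.0763. The labels do not say whether kidney and liver of the same number came from 1 mouse. In NT mice the deviations from the group means over 12727 genes correlated at 0.12 to 0.40 between kidney and liver of the same number and at -0.42 to 0.22 between different numbers, so that the fit of all 16 libraries may treat organs of 1 mouse as independent. With kidney and liver of the same group and number as a block, *Sox9* had a log2 difference of -0.86 and an adjusted p of 0.262, and the other 7 genes kept an adjusted p under 0.05.

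In liver, 8 of the 10 genes had enough reads to be tested, and edgeR called 0 of them for sh*Fos* against NT, against a background of 0% of 13144 genes. At an unadjusted p under 0.05 edgeR found 1 of the 8 (*Krt8*), against a background of 6.74%, 3.58% being higher in sh*Fos*, and DESeq2 called 0 after adjustment, against a background of 0.217%. The median log2 fold change of the 8 was -0.02 beside -0.01 over all genes. *Krt8* was at 174, 203, 178 and 174 CPM in NT livers and at 240, 207, 369 and 273 CPM in sh*Fos* livers. All 4 sh*Fos* livers were above all 4 NT livers, with means of 272 ± 69.8 and 182 ± 14 CPM (SD, n = 4 each) and an exact two-sided permutation p of 0.0286, the smallest possible. Groups without overlap were found in 4.31% of the liver genes, and in 2.79% with sh*Fos* higher. The log2 fold change was 0.58 with a standard error of 0.18 and adjusted p-values of 0.714 in edgeR and 0.244 in DESeq2. As in kidney, reads of the non-coding RNA that overlaps *Krt8* cannot be told apart from its own.

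Its partner *Krt18* was at 269, 270, 224 and 313 CPM in NT livers and at 210, 222, 393 and 245 CPM in sh*Fos* livers, which overlapped, and its log2 fold change was -0.01 with a standard error of 0.22. The ratio of *Krt8* to *Krt18* per length was 0.475, 0.552, 0.583 and 0.408 in NT livers and 0.839, 0.685, 0.690 and 0.817 in sh*Fos* livers. The groups did not overlap (0.505 ± 0.0790 against 0.757 ± 0.0816, SD, n = 4 each), and the exact two-sided permutation p was 0.0286. This ratio was chosen after the values were seen. In kidney the ratio was 1.81 ± 0.431 in NT and 2.57 ± 0.863 in sh*Fos*, with overlap and an exact two-sided permutation p of 0.171. The ratio was thus 1.31 or more in every kidney library and 0.839 or less in every liver library.

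Liver *Sox9* was at 2.84, 2.71, 2.03 and 23.3 CPM in NT and at 4.88, 2.45, 12.5 and 3.71 CPM in sh*Fos*. A single library of each group, NT replicate 4 and sh*Fos* replicate 3, held the high values. The log2 fold change was -0.40 with a standard error of 0.86, and 1.21 without NT replicate 4. The 7 cholangiocyte genes, *Sox9* among them, summed to 60.5 CPM in NT replicate 4 and to 28.2 to 30.03 CPM in the other NT livers. *Sox9* itself made up 23.3 of those 60.5 CPM, so that the sum is not independent of it. The same library had 175.5 CPM of *Cxcl1* against 10.98 to 22.5 CPM in the other NT livers. The part of bile duct cells or of an acute-phase response in the high *Sox9* value was not tested.

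Liver *Vcam1* was at 20.3, 30.6, 88.1 and 33.8 CPM in NT and at 22.2, 41.9, 26.0 and 16.4 CPM in sh*Fos*, and its log2 fold change of -0.70 was -0.09 without NT replicate 3. That library also had the highest sum of macrophage genes, 1860 CPM against 367 to 913 CPM elsewhere. Liver *Cd24a* was at 4.29, 10.7, 16.8 and 20.5 CPM in NT and at 11.3, 9.72, 6.52 and 4.67 CPM in sh*Fos* (log2 fold change -0.70). The values of *Spp1* (46.3 to 65.2 CPM in NT, 37.8 to 92.5 CPM in sh*Fos*), *Clu* (1481 to 1872 CPM and 1482 to 1860 CPM) and *Anxa2* (9.43 to 19.0 CPM and 12.1 to 20.7 CPM) overlapped as well. Their log2 fold changes were 0.05, -0.02 and 0.31.

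Whether the response differed between liver and kidney was tested as an interaction. *Havcr1* and *Krt20* had too few liver reads to show a liver change, and they are left out of these counts. EdgeR called 0 of the remaining 8 genes after adjustment, against a background of 0% of 15421 genes. DESeq2 called 0 as well and gave no adjusted p for *Havcr1* and *Krt20*. The edgeR unadjusted p was under 0.05 for 1 of the 8, *Krt8*, against a background of 16.1%. In DESeq2 the unadjusted p was 0.00482 for *Krt8* and 0.0454 for *Vcam1*. With the replicate block the edgeR unadjusted p of *Vcam1* was 0.0404. The liver change of *Krt8* exceeded its kidney change by 0.70 on the log2 scale with a standard error of 0.23 and an adjusted p of 0.199, and by 0.43 without replicate 3 of all groups. For *Vcam1* the liver change was lower by a log2 difference of -1.27 with a standard error of 0.64 and an adjusted p of 0.336, and by -0.66 without liver NT replicate 3. *Sox9*, for which the groups did not overlap in kidney, had an interaction of 0.49 with a standard error of 0.98. That value rested on single libraries, at 2.11 without liver NT replicate 4 (edgeR unadjusted p 0.00427, adjusted p 0.164), -0.60 without replicate 3 of all groups, and 1.03 with kidney and liver of the same group and number as a block. Its direction could not be told from these libraries.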

How the data were processed

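Whole-tissue RNA of 16 kidney and liver samples was sequenced as paired ends. The authors trimmed reads (Trimmomatic 0.39), aligned them to mm10 (Hisat2 2.2.1) and deposited raw read counts per gene (HTSeq-count 0.12.4, counted without strand). The 5 summary lines were left out. Unassigned reads (13.4% to 26.7%) and ambiguous reads (1.84% to 2.64%) are lost, so values of paralogues and overlapping genes are uncertain.

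Each tissue was fitted alone with edgeR 4.0.16 in R 4.3.3: filterByExpr, TMM scaling, robust quasi-likelihood test of sh*Fos* against NT, Benjamini-Hochberg adjustment over all genes tested, calls at an adjusted p under 0.05. Tissue contrasts and interactions used all 16 libraries. DESeq2 1.42.0, other normalizations and filters, GC content and length corrections, a replicate block and left-out libraries were alternatives. For single values an exact two-sided permutation test over 70 assignments was used. Positions, identifiers and lengths came from GENCODE M21, in which 98.2% of symbols were found. Limits from counts cover counting error only. The scripts were tested on simulated data.

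The 10 genes, the marker lists (compiled from general knowledge) and the tests were chosen with earlier results of these data known. Genes named from a list are the 3 with the smallest kidney p, with the 2 most alike in kidney for each of the 10, and others named were chosen after their values were seen.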

Additional observations from a re-analysis of the deposited data

Results flagged for a closer look

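In 5 of the 37 groups of 4 libraries that were examined, 1 library lay far from the others by Dixon's criterion (its gap to the nearest library, as a share of the range of the group), and chance flags about 1.85 of 37. *Sox9* gave 2 of them. In kidney sh*Fos* replicate 3 it was at 1.36 CPM against 3.06 to 3.21 CPM in the other sh*Fos* kidneys, and in liver NT replicate 4 at 23.3 CPM against 2.03 to 2.84 CPM in the other NT livers. *Spp1* was at 2587 CPM in kidney sh*Fos* replicate 1 against 3202 to 3305 CPM in the others of its group. *Krt8* was at 203 CPM in liver NT replicate 2 against 174 to 178 CPM. *Krt20* was at 0.423 CPM (8 reads) in liver NT replicate 4 and at 0 to 0.0660 CPM in the other NT livers.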

How the results depend on the processing

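The count of the 10 genes called in kidney, 0 in the fit reported, was 1 with DESeq2 (*Sox9*) and 3 without NT replicate 4 and sh*Fos* replicate 1 (*Krt18*, *Vcam1* and *Sox9*). It ranged from 0 to 1 with single libraries left out, where *Krt18* was called without sh*Fos* replicate 1. The count at an unadjusted p under 0.05, 1 as reported, was 0 in the fit of all 16 libraries, 2 with a GC content correction, with a GC content and length correction and with the replicate block and GC content together (*Anxa2* beside *Sox9*), 4 without both libraries, and 1 to 3 with single libraries left out. Over all kidney genes the calls, 0 as reported, numbered 2577 with DESeq2, 3 without a filter on low counts, 994 in the fit of all 16 libraries, 5183 without both libraries, and 0 to 4126 with single libraries left out. Of these left-out libraries, the highest count was that without sh*Fos* replicate 1. At an unadjusted p under 0.05 the share over all kidney genes was 31.9% in the fit reported. Without both libraries it was 34.9% after adjustment. The shares at the unadjusted p in the other fits are not given here, so those counts are not read as a result about the 10 genes. In liver, DESeq2 called 28 genes. With single libraries left out, 1 to 2 of the 8 genes tested had an unadjusted p under 0.05 in edgeR. In the fit reported, 6.74% of all liver genes did so. By the longest transcript 2 of the 10 genes, *Krt18* and *Anxa2*, changed rank in NT kidney, an alternative chosen after seeing the data.

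The estimates of 5 genes in kidney and 4 in liver changed sign under some alternative, among them kidney *Krt20* and liver *Sox9*, which were not near 0. Kidney *Spp1* was -0.01 with upper-quartile normalization, -0.08 with the GC content correction, -0.03 with GC content and length, and -0.08 with the block and GC content, and -0.03 to 0.13 with single libraries left out. Kidney *Krt8* was 0.10, 0.15 and 0.10 under those 3 corrections, and *Clu* 0.05 with GC content and length. Without NT replicate 4 and sh*Fos* replicate 1, *Havcr1* was -0.05 and *Krt20* 0.19, and with single libraries left out they were -0.02 to 0.52 and -1.20 to 0.16. Liver *Spp1* was -0.02 with the replicate block and -0.01 with block and GC content. Liver *Krt18* was 0.02 with GC content and 0.17 without both libraries. Liver *Sox9* was 0.17 with the replicate block, 0.17 with block and GC content, and 1.29 without both libraries. With single livers left out, *Spp1* ranged from -0.27 to 0.21, *Krt18* from -0.26 to 0.09, *Clu* from -0.10 to 0.03 and *Sox9* from -1.07 to 1.21. The cause was not tested.

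Samples with the same replicate number did not deviate together (correlations of -0.17 to 0.12 in kidney and -0.28 to 0.02 in liver), so no pairing of NT with sh*Fos* was seen. With the replicate block edgeR called 0 of the 10 genes and 0 genes in all in either tissue. Across tissues, kidney and liver of the same number correlated at 0.12 to 0.40 in NT and at 0.04 to 0.16 in sh*Fos*. A block of kidney with liver was chosen after seeing the data, like the alternatives without liver NT replicate 3 or 4. With that block *Sox9* lost its call between the tissues. Of the genes with enough liver reads, the others kept theirs, and 0 were called for the interaction. Of the 10 genes, kidney *Sox9*, at 19 to 95 reads per library, was the 1 whose call differed between edgeR and DESeq2.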
